A study of Mus musculus with 2 samples.

Results

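A group of 10 genes that mark or maintain pluripotency was followed through the knockdown of USP21 in mouse embryonic stem cells (mESCs): Pou5f1 (encoding Oct4), Sox2, Sall4, Lin28a, Utf1, Dppa2, Dppa3, Dppa4, Dppa5a and Tcl1. The 10 genes were taken by their symbols from a table of 23889 symbols, in which each of them had a single row. They had been chosen by their measured values in this same pair of libraries among other things, so everything said below about their change is a description and not a test. The cells were E14, a mESC line whose labels give its source as 19/Ola mouse and that was grown without feeder cells on gelatin in serum medium with leukaemia inhibitory factor (LIF). A control shRNA was transfected into the first culture, recorded as genotype Normal, and an USP21 shRNA into the second, recorded as USP21 knockdown, and both were collected after 3 days. The labels do not say which USP21 shRNA was used. Total RNA was sequenced from 1 library per group, so no difference below has a replicate check and no p-value or error was computed.

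USP21 is a deubiquitinase, an enzyme that removes ubiquitin from other proteins, and the study examined it as a regulator of the pluripotency factor Nanog. Pluripotency rests on a small circuit of transcription factors in which Oct4 and Sox2 bind adjoining DNA sites, often together with Nanog, and keep each other and a wider set of ES cell genes active. Sall4 and Utf1 act with this circuit at chromatin, Lin28a acts on RNA, the Dppa genes are named for developmental pluripotency association, and Tcl1 encodes a co-activator of the kinase AKT. Several of the genes are also used as markers of undifferentiated mESCs or of the germ line.

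Promoter sequence was at hand in RefSeq (GRCm38.p6) for 5 of the 10 genes, Pou5f1, Sox2, Lin28a, Utf1 and Tcl1. The 150 bases before the more upstream of the RefSeq and GENCODE starts are shown 5′ to 3′ on the strand of the gene for both core factors, for Utf1, which was slightly higher after knockdown, and for Tcl1, which had the lowest ratio, as these 4 span the levels and ratios of the genes with a promoter at hand. Pou5f1 lies at chr17:35505868-35506017 (+), Sox2 at chr3:34649845-34649994 (+), Utf1 at chr7:139943639-139943788 (+) and Tcl1 at chr12:105222794-105222943 (-). Capitals mark matches to 5 short motifs on either strand, which are spelled out in the next paragraph, and a match on the opposite strand appears as the reverse complement.
Pou5f1: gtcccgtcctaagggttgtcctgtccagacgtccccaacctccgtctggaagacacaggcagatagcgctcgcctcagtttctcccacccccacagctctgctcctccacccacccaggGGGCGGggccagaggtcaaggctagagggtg
Sox2: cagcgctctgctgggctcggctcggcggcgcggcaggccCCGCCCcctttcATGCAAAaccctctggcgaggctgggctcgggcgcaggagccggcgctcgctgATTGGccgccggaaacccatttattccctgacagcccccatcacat
Utf1: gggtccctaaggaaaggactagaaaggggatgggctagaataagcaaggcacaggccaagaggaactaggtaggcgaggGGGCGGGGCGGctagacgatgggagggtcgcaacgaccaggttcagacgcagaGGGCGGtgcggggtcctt
Tcl1: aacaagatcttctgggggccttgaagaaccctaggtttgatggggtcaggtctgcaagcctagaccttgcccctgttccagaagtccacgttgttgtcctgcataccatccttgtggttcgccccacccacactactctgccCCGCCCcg

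In the 250 bases before the RefSeq start, which reach beyond the bases shown, the GC box GGGCGG was found on either strand for 4 of these 5 genes (not for Lin28a) and in 32.7% of 32851 RefSeq promoters. The CCAAT box was found, by those letters, for Sox2 and Pou5f1 and in 33.8% of all promoters. The octamer core ATGCAAA was found for Sox2 alone, 99 bases before its RefSeq start, and in 4.12% of all promoters, and the Sox core CATTGT for Lin28a alone and in 10.7%. The TATA box TATAAA was found for 0 of the 5 and in 12.4% of all promoters. GGGCGG occurred 4 times for Utf1, with 2 of the copies overlapping by 1 base. These matches describe letters in a window and nothing was measured at the promoters themselves.

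All levels are FPKM, fragment counts that the authors divided by transcript length and by the number of mapped fragments before they deposited them. FPKM is per length, so the levels of different genes can be set side by side. The difference between libraries is given as a log2 ratio, log2((FPKM with USP21 shRNA + 0.1)/(FPKM with control shRNA + 0.1)), in which the added 0.1 makes the change of low genes look smaller. Usp21 itself went from 26.2 to 3.49, a log2 ratio of -2.87, so that 13.3% of the control level was left of the targeted gene in the library labelled as its knockdown. Summed over all symbols, FPKM came to 613617 with control shRNA and to 543206 with USP21 shRNA, and 0 was listed for 6578 and 6638 symbols. Read counts were not analysed here. The commonest ratio of low values (1439 genes above 0 and under 0.1 in both libraries) puts the depth of the control library at about 1.23 times that of the other, which is an estimate from the steps in the values. Rescaling both libraries to equal sums (TPM) raised the log2 ratios of all genes nearly alike, their median by 0.17 to 0.18, so that values and counts given on that scale are to be read against 0.18.

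The 10 genes covered a wide range in the control library. Dppa5a was highest at 1849, followed by Pou5f1 at 868, Utf1 at 289 and Sox2 at 241. A middle group of 5 genes lay close together, with Dppa4 at 75.8, Lin28a at 67.1, Tcl1 at 66.7, Sall4 at 64.9 and Dppa2 at 52.7. Dppa3 stood apart at 0.865. The first 5 places were held by the same genes in the same order after USP21 shRNA, and Dppa3 was again last. The order changed within the middle group, where Tcl1 went from place 7 to place 9 and Dppa2 from place 9 to place 7. With 1 library per group there is no spread against which to judge the distance between neighbours in this order.

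**Figure D1:**
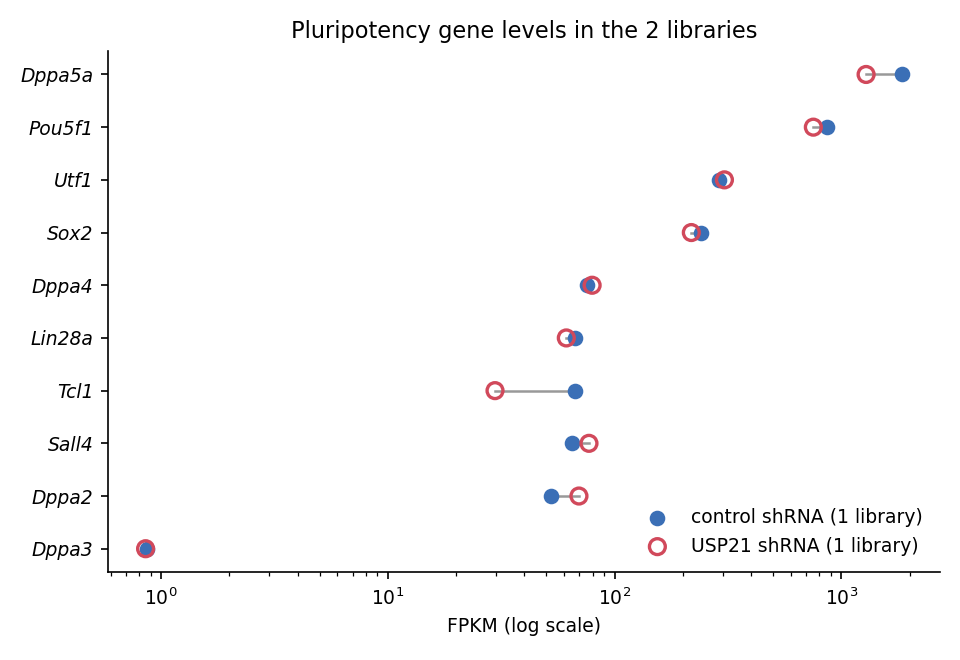
FPKM of the 10 genes (log scale) in the library with control shRNA (filled) and the library with USP21 shRNA (open), ordered by the control level, each point 1 library. The pairs of points nearly coincide for most genes, and the longest line is that of Tcl1, from 66.7 to 29.7.

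Together the 10 genes made up 0.583% of all FPKM with control shRNA and 0.530% with USP21 shRNA. Dppa5a alone made up 51.7% of their sum in the control library and 44.6% after USP21 shRNA, and Pou5f1 24.3% and 26.1%. In bulk RNA, fewer cells expressing a gene and less RNA of it per cell cannot be told apart, and this holds for each value below.

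Pou5f1 and Sox2, the core pair, were both slightly lower in the library with USP21 shRNA. Pou5f1, on chromosome 17 from 35506018 to 35510772 in GRCm38, went from 868 to 752, which left 86.6% of the control level at a log2 ratio of -0.21. Sox2, a single exon on chromosome 3 from 34650405 to 34652461, went from 241 to 218, which left 90.5% at a log2 ratio of -0.14. The ratio of Sox2 to Pou5f1 was therefore almost the same, 0.277 in the control library and 0.290 in the other. Pou5f1 ranked 108th of all symbols in the control library and 104th after USP21 shRNA, and Sox2 354th and 336th, so both held their place although their FPKM was lower. Sox2 lies inside the long non-coding gene Sox2ot on the same strand, and Sox2ot was at 0.202 and 0.513, far under Sox2.

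The relatives of the core pair were at much lower levels. Pou2f1 (from 13.9 to 17.9) and Sox12 (from 12.1 to 15.4) were the highest POU and Sox genes among the listed paralogues, both picked out after their values were seen. Pou5f1 had 62.7 times the FPKM of Pou2f1 in the control library and 42.1 times in the other, and Sox2 had 19.9 and 14.1 times that of Sox12. Among all 27 paralogues of the 10 genes, 18 reached an FPKM of 1 in at least 1 library, with a median log2 ratio of 0.37. Of these 18, 1 was lower by at least 1.5-fold and 4 were higher, beside 6.46% and 7.77% of all genes. After rescaling to equal sums 1 was lower and 8 higher, beside 3.97% and 14.1% of all genes. The lowest ratio was that of Pou2f3, from 1.89 to 0.507 (-1.71), and the highest that of Pou2f2, from 0.320 to 1.17 (1.6), both at low levels.

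Genes with a known composite Oct4-Sox2 element were listed without those among the 10 genes. Of the 6 listed, all reached an FPKM of 1, and their median log2 ratio was -0.50. Past 1.5-fold, 2 were lower and 0 higher, beside 6.46% and 7.77% of all genes. After rescaling to equal sums their median was -0.33, and 1 was lower and 1 higher, beside 3.97% and 14.1% of all genes. After correction for transcript length 1 was lower, with a median of -0.40. Nanog, itself a partner of Oct4 and Sox2, went from 467 to 258 (-0.86), the lowest ratio of the 6, and the growth factor gene Fgf4 from 54.8 to 74.0 (0.43), the highest. Pou5f1, Sox2 and Utf1 are also known to carry such an element, and with them the median of the 9 genes was -0.21. The other gene lower by 1.5-fold was the Nodal antagonist Lefty1, from 35.8 to 23.6 (-0.60).

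Sall4 and Lin28a, which act with the core circuit at chromatin and on RNA, differed in opposite directions by small amounts. Sall4, a zinc finger transcription factor on chromosome 2 from 168748332 to 168767943 that recruits the nucleosome remodelling and deacetylase complex NuRD, went from 64.9 to 77.1, a log2 ratio of 0.25. Lin28a, an RNA-binding protein on chromosome 4 from 134003330 to 134018841 that blocks the maturation of let-7 microRNAs, went from 67.1 to 61.3, a log2 ratio of -0.13. Sall4 was thus just under Lin28a in the control library, at 0.968 times its level, and above it after USP21 shRNA, at 1.26 times. Their closest relatives were both a little higher, Sall1 from 46.3 to 50.7 (0.13) and Lin28b from 7.5 to 10.6 (0.49). Lin28a had 8.95 times the FPKM of Lin28b in the control library and 5.78 times in the other.

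The listed partners of both proteins were within 1.5-fold. Past it, 6.46% of all genes were lower and 7.77% higher, so nothing is read from that. All 11 listed NuRD subunits lay between those of Rbbp4, a histone-binding subunit that went from 127 to 112 (-0.18), and Rbbp7, its relative, from 138 to 165 (0.26), with a median of 0.06 that was -0.0036 after correction for transcript length. The deacetylase Hdac1 was the highest of them and went from 155 to 154 (-0.01). All 15 genes of the let-7 pathway and its targets were also within 1.5-fold, with a median of 0.11. After rescaling to equal sums 2 were higher by 1.5-fold, beside 14.1% of all genes. The highest of the 15, the chromatin protein gene Hmga1, went from 188 to 175 (-0.10). The lowest ratio was that of Dis3l2, the exonuclease that degrades uridylated pre-let-7, from 16.4 to 12.9 (-0.34).

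Utf1, Dppa2 and Dppa4 were each somewhat higher after USP21 shRNA. Utf1, a chromatin-associated factor on chromosome 7 from 139943789 to 139945112, went from 289 to 305, a log2 ratio of 0.08. Dppa4, on chromosome 16 from 48283733 to 48294237, went from 75.8 to 79.6, a log2 ratio of 0.07. Dppa2, on the same strand of chromosome 16 from 48303908 to 48319723, went from 52.7 to 69.6, a log2 ratio of 0.40 and the highest of the 10. The protein products of Dppa2 and Dppa4 bind chromatin together through SAP domains, and the genes lie 16.0 kb apart. The ratio of Dppa4 to Dppa2 was 1.44 in the control library and 1.14 in the other, so the difference was larger in Dppa2 than in its neighbour. Beyond Dppa2 the next gene, the germ line gene Morc1, went from 16.1 to 10.02 (-0.68).

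Most listed genes of the 2-cell stage that Dppa2 and Dppa4 are known to activate were lower, although Dppa2 and Dppa4 were not. Of 14 listed, 12 were analysed here and 7 reached an FPKM of 1. Of these 7, 6 were lower by at least 1.5-fold and 0 higher, beside 6.46% and 7.77% of all genes. The median log2 ratio of the 7 was -1.30. The counts were 6 and 0 also after rescaling to equal sums and after correction for transcript length, but 5 and 0 with a pseudocount of 1, where the median was -0.86. Zscan4a, Zscan4d, Zscan4e, Usp17lb and Usp17le reached an FPKM of 1 in the control library alone, so the filter itself favoured lower genes. Among the genes under the filter, log2 ratios ran from -0.98 for Zfp352 to 0.05 for Usp17ld. No conclusion is drawn from the count or the median. The 6 Zscan4 genes, which encode telomere-associated factors expressed in a small share of mESCs at a time, summed to 16.3 in the control library and 5.71 in the other. Zscan4f was the highest, from 4.998 to 2.31 (-1.08), and Zscan4a had the lowest ratio, from 3.13 to 0.602 (-2.20). Of the 7 genes that reached an FPKM of 1, Usp17lb, from 1.19 to 0.812 (-0.50), had the highest ratio. These are near-identical copies at low levels, and how fragments were split among them is not given in the sources used here.

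Dppa3, also called Stella, a maternal factor and germ line marker that protects DNA methylation in the early embryo, was close to silent in both libraries. It lies on chromosome 6 from 122626410 to 122630272, between Gdf3 and Nanog, and was at 0.865 in the control library and 0.855 in the other, a log2 ratio of -0.01. As the only one of the 10 genes it did not reach an FPKM of 1 in either library. Its neighbours were far higher, Gdf3 from 44.1 to 51.1 (0.21) and Nanog, 77.2 kb away, from 467 to 258 (-0.86). The lowest FPKM above 0 of any gene of like transcript length (at least 0.8 times as long, or the reverse) was 0.0124 in the control library and 0.00957 in the other, so Dppa3 was above the smallest value the libraries could show.

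Genes of DNA methylation that are tied to Dppa3 all reached an FPKM of 1 in at least 1 library. Of the 7 listed, 6 were within 1.5-fold and 1 was higher, beside 7.77% of all genes higher. Their median was 0.04, and -0.04 after correction for transcript length. Dnmt3a, a de novo DNA methyltransferase, went from 19.4 to 36.5 (0.91), the highest ratio of the list. Trim28, a co-repressor, was the highest gene at 682 and 591 (-0.21), and the zinc finger gene Zfp57, which guards imprints, had the lowest ratio, from 231 to 196 (-0.24).

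Dppa5a, also called Esg1, showed the largest difference in FPKM. This small RNA-binding KH-domain protein is encoded on chromosome 9 from 78367052 to 78368177, and its FPKM went from 1849 to 1285, which left 69.5% of the control level at a log2 ratio of -0.52. Its place among all symbols went from 56th to 66th. Its neighbour and KH-domain relative Ooep, an oocyte-expressed gene 8.70 kb away, went from 48.6 to 43.2 (-0.17), and Khdc3, another relative, from 11.6 to 28.8 (1.31). In the plane of the log2 levels in the 2 libraries, the 3 genes nearest to Dppa5a were Rps27a (from 1886 to 1300), Rpl38 (from 1806 to 1272) and Pfn1 (from 1901 to 1266), each within 0.046 log2 units of it. The first 2 encode ribosomal proteins and Pfn1 an actin-binding protein. This is a likeness over 2 libraries only.

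Tcl1, a co-activator of AKT that is high in undifferentiated mESCs, had the largest relative difference of the 10. It lies on chromosome 12 from 105216750 to 105222793 and went from 66.7 to 29.7, so that 44.5% of the control level was left at a log2 ratio of -1.17. Its place among all symbols went from 1413th to 3054th. The Tcl1b genes beside it, its closest relatives, were at or near 0, with Tcl1b1, Tcl1b3 and Tcl1b5 listed at 0 in both libraries, Tcl1b2 at 0.0938 and 0.119, and Tcl1b4 at 0.0428 and 0. Mtcp1, another relative chosen after its values were seen, was at 2.62 and 2.95. The 3 genes nearest to Tcl1 in the plane of the log2 levels were Prps1, a nucleotide synthesis gene (from 66.3 to 27.0), the ES cell transcription factor gene Tfcp2l1 (from 59.0 to 30.2) and Trp53inp1, a p53 target (from 60.1 to 32.4), within 0.197 log2 units over 2 libraries.

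The AKT pathway genes reported here each had a smaller difference than Tcl1. All 10 genes of the list that are reported here reached an FPKM of 1 and were within 1.5-fold. Past it, 6.46% of all genes were lower and 7.77% higher, so nothing is read from that count. The median of the 10 was 0.23, and 0.0031 after correction for transcript length. After rescaling to equal sums 1 was higher by 1.5-fold, beside 14.1% of all genes. Rictor, a subunit of the kinase complex mTORC2 that phosphorylates AKT, had the highest ratio, from 5.67 to 7.73 (0.44), and the kinase gene Pik3cb the lowest, from 11.1 to 10.04 (-0.14). Eras, a Ras-like activator of PI3-kinase in mESCs, had the highest level at 41.6 and 49.9 (0.26).

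Set beside the whole table, 8 of the 10 genes lay within 0.5 of a log2 ratio of 0, as did 81.3% of all genes. Of the 10, 6 had a log2 ratio below 0 and 4 above 0, and their median was -0.07, beside 0.0031 for the 11927 genes with an FPKM of at least 1 in at least 1 library. Past 1.5-fold, 1 of the 10 genes (Tcl1) was lower and 0 were higher, beside 6.46% of all genes lower and 7.77% higher. Past 2-fold, Tcl1 was again the 1 lower gene and 0 were higher, beside 2.03% lower and 2.30% higher. Since the genes had been chosen with this contrast in view, nothing is read from these counts. Of the 10, 9 passed the filter on low values, Dppa3 being the exception.

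As places among all genes, Tcl1 was at percentile 1.27 of the log2 ratio, Dppa5a at 7.77, Pou5f1 at 26.03, Sox2 at 32.5 and Lin28a at 33.6. Dppa3 would fall at 47.5, Dppa4 at 58.1, Utf1 at 59.2, Sall4 at 75.7 and Dppa2 at 85.6. For comparison, Usp21 was at 0.0503, Nanog at 2.88, Zfp42 (Rex1) at 18.0 and Klf4 at 31.5, with FPKM from 370 to 299 for Zfp42 (-0.30) and from 85.0 to 76.5 for Klf4 (-0.15). Klf4 and Zfp42 thus lay near Pou5f1 and Sox2, while Nanog lay between Tcl1 and Dppa5a.

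The log2 ratio also went with the level. The median log2 ratio was 0.06 for 5075 genes with a mean FPKM of 1 to 10, -0.0066 for 5670 genes at 10 to 100 and -0.18 for 897 genes at 100 and over, of which 77.1% were below 0. Among the 158 highest of these the median was -0.33 and 94.3% were below 0. Pou5f1 and Dppa5a are among those 158, Pou5f1 (-0.21) above their median and Dppa5a (-0.52) under it. Sox2 (-0.14) and Utf1 (0.08) are among the 897, both above their median. Dppa2, Dppa4, Sall4, Lin28a and Tcl1 are in the class at 10 to 100, and of these Lin28a and Tcl1 lay under its median. The part of this trend in the values of the 10 genes was not tested.

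**Figure D2:**
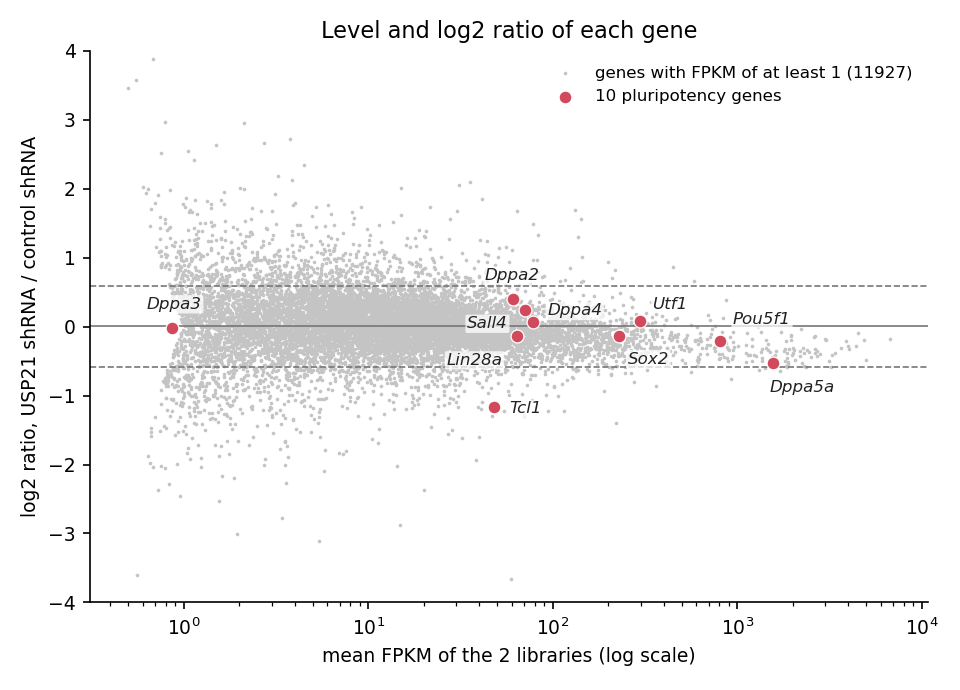
Mean FPKM of the 2 libraries (log scale) against the log2 ratio of USP21 shRNA over control shRNA for the 11927 genes with an FPKM of at least 1 in at least 1 library (grey, of which 4 lie outside the plotted range) and the 10 pluripotency genes (red). The solid line is the median of all genes and the dashed lines mark 1.5-fold, and of the 10 genes Tcl1 at -1.17 is the one outside them.

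Transcript length moved with the log2 ratio as well. Across 11378 genes with a transcript in GENCODE M21 (GRCm38), Spearman's rho of length and log2 ratio was 0.32, a description across genes of 2 libraries. The median log2 ratio was -0.16 in the shortest of 5 length classes (137 to 1628 bases) and 0.17 in the longest (4801 bases and over). The 10 genes ranged from 619 bases in Dppa5a to 5073 in Sall4, and 6 of them were in the shortest class. The 295 genes of like length to Dppa5a, the shorter of the 2 transcripts being at least 0.8 times the longer, had a median of -0.30, against -0.52 for Dppa5a itself. For Tcl1, of 1299 bases, 1402 genes of like length had a median of -0.12, against -1.17. For Pou5f1, of 1362 bases, the median was -0.12 over 1490 genes, against -0.21.

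With a smooth curve of the log2 ratio on length subtracted, Tcl1 was at -1.04, Dppa5a at -0.25, Lin28a at -0.16, Sox2 at -0.10 and Pou5f1 at -0.09. Sall4 was at 0.14, Dppa4 at 0.17, Dppa3 at 0.20, Utf1 at 0.21 and Dppa2 at 0.43. Of the 10 genes 5 were then below 0 and 5 above, and their median was 0.02. The ratio of Dppa5a thus went from -0.52 to -0.25 with the correction, and that of Tcl1 from -1.17 to -1.04.

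**Figure D3:**
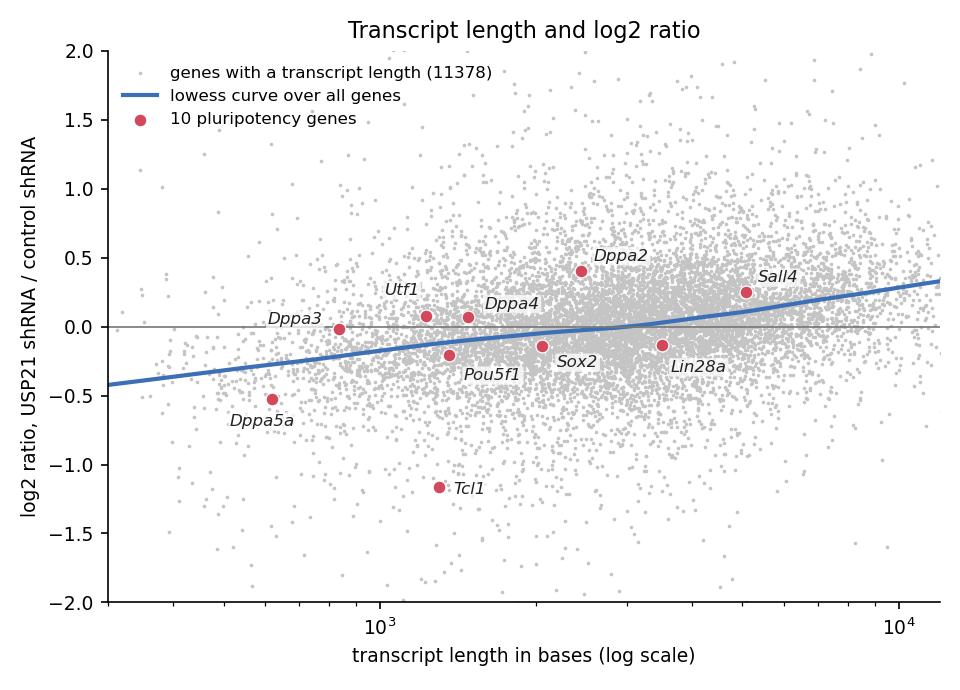
Transcript length in bases (log scale) against the log2 ratio of USP21 shRNA over control shRNA for genes with an FPKM of at least 1 in at least 1 library (grey, 147 of 11378 outside the plotted range), with the lowess curve (blue) and the 10 pluripotency genes (red). Short transcripts lie lower on average, and Dppa5a at 619 bases is nearer to the curve than to 0.

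Part of several transcripts also occurs in other annotated genes, which bears on how fragments could be assigned. Counted in words of 31 bases on either strand in GENCODE M21, 57.2% of the words of Dppa5a, 44.3% of Dppa4, 33.8% of Dppa2, 31.8% of Dppa3 and 22.7% of Pou5f1 occurred in at least 1 other gene. For Sall4, Lin28a and Sox2 the shares were 5.22%, 2.19% and 0.888%, and for Utf1, Tcl1 and Usp21 they were 0. Of the genes sharing words with Dppa5a, Pigp held 22.8% of them and was at 31.1 and 27.4. Dppa3 shared 31.01% of its words with a pseudogene, Dppa3-ps. The predicted genes that share the most words with Dppa2 and Dppa4 were not analysed here. Levels of Dppa5a, Dppa4, Dppa2, Dppa3 and Pou5f1 could be affected, by an amount that these shares do not measure. An antisense gene overlaps Pou5f1, Sall4 and Lin28a, and for Pou5f1 that gene, Gm19553, held 17.6% of the words.

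The wider set of ES cell genes was checked against the labelled cell type. All 30 listed genes of mESCs other than the 10 reached an FPKM of 1, from 12.6 for Prdm14 to 467 for Nanog in the control library. Of the 30, 4 were lower by at least 1.5-fold (Tfcp2l1, Prdm14, Nanog and Tdh) and 1 was higher (Dnmt3l). Their median was -0.13, and past 1.5-fold 6.46% of all genes were lower and 7.77% higher. After rescaling to equal sums 3 were lower and 5 higher, beside 3.97% and 14.1% of all genes. The median of the 30 was then 0.05, beside 0.18 for all genes. Tfcp2l1 had the lowest ratio at -0.97, and Dnmt3l, a DNA methyltransferase cofactor, the highest, from 62.1 to 201 (1.69).

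Of 38 genes listed as markers of other cell types, 19 reached an FPKM of 1 in at least 1 library. An FPKM of 10 was reached by 6 (Tubb3, Gata6, Tfap2c, Dnmt3b, Foxd3 and Thy1). Dnmt3b is also among the DNA methylation genes above, so such a level does not by itself show other cells. The 6 trophectoderm markers summed to 10.5 and 14.7, and 3 reached an FPKM of 1, Hand1 and Gata3 only after USP21 shRNA. The highest was Tfap2c, from 8.83 to 11.4 (0.36), with the lowest ratio of these 3. Hand1 had the highest ratio, from 0.403 to 1.2498 (1.42). Of the markers under that limit, Krt7 (-0.21) and Elf5 (-0.41) were lower and Cdx2 (0.52) was higher. The 6 neural markers summed to 46.3 and 31.2, most of it from Tubb3, from 38.5 to 20.4 (-0.91), with Nes the highest ratio, from 1.71 to 2.42 (0.48). The 6 endoderm markers summed to 22.4 and 25.7, with Gata6 the highest, from 8.60 to 10.8 (0.32). Among them Pdgfra had the highest ratio, from 2.48 to 4.22 (0.75), and Foxa2 the lowest, from 1.59 to 1.35 (-0.23). Gata4 went from 5.70 to 5.78 (0.02) and Sox17 from 4.02 to 3.54 (-0.18). The 6 mesoderm markers summed to 3.13 and 3.64. The 2 at an FPKM of 1 were Mixl1, from 1.06 to 0.613 (-0.70), and Eomes, from 1.205 to 1.40 (0.20). Under that limit, T (0.69), Kdr (0.97) and Tbx6 (0.89) were higher and Mesp1 (-0.08) was lower.

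The 6 markers of primed epiblast summed to 54.1 and 54.0. Dnmt3b was their highest, from 24.5 to 23.9 (-0.04). Among those at an FPKM of 1, Otx2 had the highest ratio, from 4.42 to 8.78 (0.97), and Foxd3 the lowest, from 22.7 to 18.5 (-0.30). Fgf5, under that limit, was at 0.0999 and 0.0517 (-0.40). The 8 fibroblast markers summed to 19.6 and 8.03, of which Thy1 made up most, from 17.3 to 5.29 (-1.69), and Twist1 had the highest ratio, from 1.36 to 1.99 (0.52). Pax6, Afp, Col3a1 and Lum were all under 0.1 in both libraries. The part of any such cells in the values of the 10 genes was not tested.

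**Figure D4:**
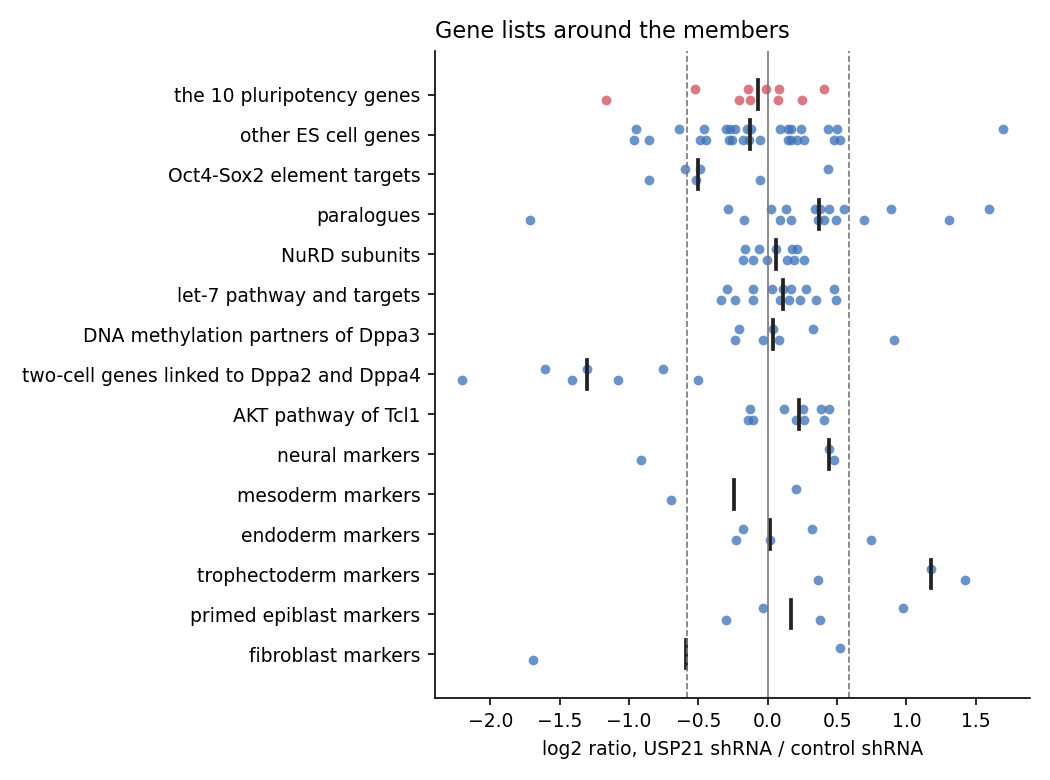
Log2 ratio of USP21 shRNA over control shRNA for each gene of 15 lists, the 10 pluripotency genes in red (all 10 shown) and the others in blue (genes with an FPKM of at least 1 in at least 1 library), each point 1 gene. Black bars are list medians, dashed lines mark 1.5-fold and the grey line is the median of all genes. The 10 genes centre on -0.07. The bar of the 2-cell genes, at -1.30, covers only genes past the filter, which itself favoured lower genes. No conclusion is drawn from that bar.

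Under 4 of the 5 processing alternatives each of the 10 genes stayed on its side of the median of all genes. Those 4 could hardly change a side, so only the fifth, the correction for transcript length, bears on it. Under that correction Dppa3 alone changed side. As reported, 6 of the 10 were under that median. On the scale of equal sums, with its median of 0.18, Tcl1 was at -0.99, Dppa5a at -0.35, Pou5f1 at -0.03, Sox2 at 0.03, Lin28a at 0.04 and Dppa3 at 0.15, all 6 under it. Dppa2 was at 0.58, Sall4 at 0.42, Utf1 at 0.26 and Dppa4 at 0.25, all above it. Relative to Pou5f1, a comparison within each library that rescaling leaves as it is, the log2 ratio of Tcl1 was -0.96 and that of Dppa2 was 0.61.

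**Figure D5:**
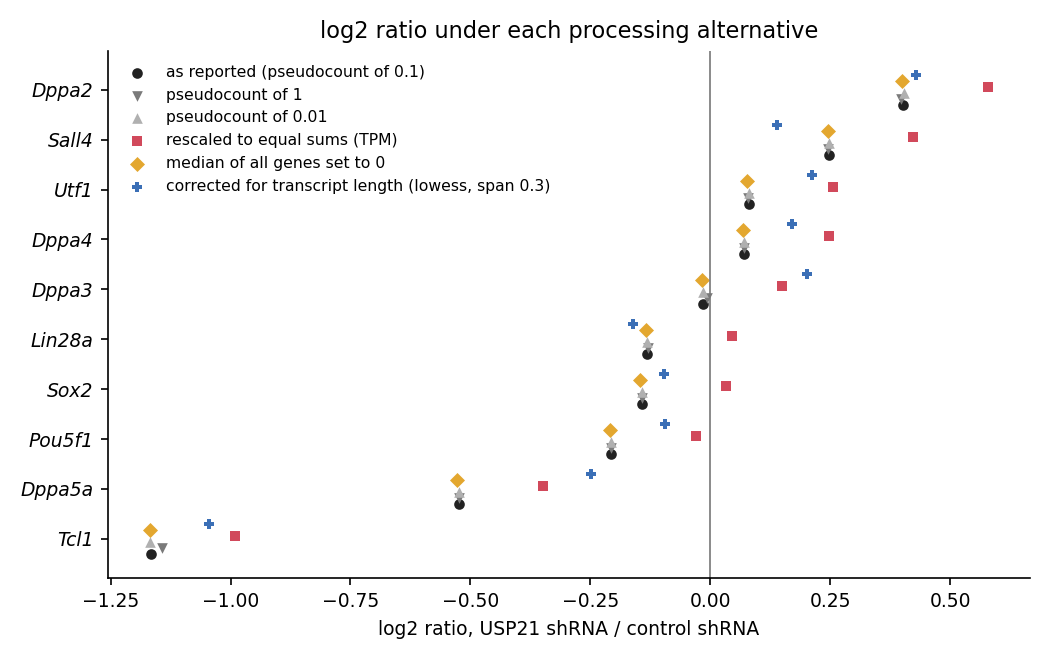
Log2 ratio of USP21 shRNA over control shRNA for each of the 10 genes as reported and under the 5 processing alternatives, 1 symbol per setting, with small vertical offsets for legibility. Tcl1 stays between -1.17 and -0.99, and the squares (equal sums), to be read against a median of 0.18 for all genes, lie to the right of the circles (as reported) for each gene.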

How the data were processed

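Total RNA from 1 control shRNA and 1 USP21 shRNA culture was sequenced, and for each library the authors deposited a list of gene symbols with an FPKM each. The submitters' processing notes name CASAVA 1.8.2, TopHat2 2.0.14, Cufflinks 2.2.1 and the mouse build mm9. The annotation, the strandedness of the libraries and any scaling beyond FPKM are not given in the sources used here, and the paper describes no RNA sequencing. FPKM divides by transcript length and by mapped fragments, so it depends on the transcript model and on the highest genes of a library. The deposited FPKM were used unchanged.

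From them the log2 ratio of USP21 shRNA over control shRNA was taken for 23889 symbols after 0.1 had been added to both values. Background shares, medians and percentiles used the 11927 genes with an FPKM of at least 1 in at least 1 library, and genes were counted past 1.5-fold and 2-fold. With 1 library per group no test, interval or detection floor was computed. Lengths (transcript with the longest coding sequence), word sharing and gene positions came from GENCODE M21 (GRCm38) and promoters from RefSeq (GRCm38.p6), matched by symbol. Neither is the build of the files, from which no coordinates were taken. The length correction subtracted a lowess curve (span 0.3) and was tested on simulated data.

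The alternatives were pseudocounts of 1 and 0.01, equal sums (TPM), the median of all genes set to 0, the length correction, and filters at FPKM 0.1, 5 or none. The 10 genes and all lists were chosen with earlier results of these data known. Genes named were the 10, Usp21, Nanog, Zfp42 and Klf4, from each list the highest control level and the highest and lowest ratios, neighbours, symbols with a shared stem and the 3 nearest genes in level. The highest and lowest ratios of a list are among its genes with an FPKM of at least 1 in at least 1 library. Not every neighbour is given. For the AKT pathway list, 1 gene is not reported here, and the list's counts and medians are without it. The work was done in Python 3.11.15 with pandas 2.3.3 and numpy 2.4.6 for the tables, statsmodels 0.14.6 for the lowess curve, scipy 1.17.1 for rank correlation and matplotlib 3.10.9 for plots.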

Additional observations from a re-analysis of the deposited data

How the results depend on the processing

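A value was counted as moved when it changed by at least 0.05 on the log2 scale, or a count or share by over 1.5 times. Rescaled to equal sums, the median log2 ratio of the 10 genes was 0.10 instead of -0.07, that of Usp21 -2.71 instead of -2.87, and 0 instead of 1 of the 10 genes was lower by 2-fold, since Tcl1 came to -0.99. On that scale 22% of the genes past 1.5-fold were lower, against 45.4% on the reported one. With the length correction the median of the 10 genes was 0.022, and with a pseudocount of 1 Usp21 was at -2.60. With a filter at FPKM 5, 1.10% of genes were lower and 1.35% higher past 2-fold. The count of 1 gene lower and 0 higher past 1.5-fold was the same under all 5 alternatives. With equal sums the 0 held narrowly, as Dppa2, at 0.578, was only just within 1.5-fold. Equal sums raised the median of all genes by 0.17, and relative to that median all 10 genes kept their side under 4 of the 5 alternatives and 9 under the length correction, the exception being Dppa3. Those 4 alternatives could hardly change a side, so only the length correction bears on it. The median of the 2-cell genes was -0.86 with a pseudocount of 1. With 1 library per group, no replicate could be left out, and culture-to-culture variation and depth per gene are unknown. No paired analysis was possible because each group has 1 library.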

Other observations

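The 18 genes beside the 10 on their chromosomes were the nearest protein-coding genes among the 23889 symbols, and some lie far away. They ranged from 0.031 to 467 in the control library, and 8 reached an FPKM of 10. Dnajc19, 569 kb before Sox2, went from 86.6 to 60.7 (log2 ratio -0.51), and Atp11b, 1102 kb after it, from 26.05 to 31.6 (0.28). Zfp64, 126 kb from Sall4, went from 25.3 to 22.6 (-0.16). H2-Q10, before Pou5f1, went from 2.38 to 1.05 (log2 ratio -1.10), and Tcf19, 1.95 kb after it, from 7.86 to 7.67 (-0.03). Kndc1, 2.32 kb before Utf1, was at 1.46 and 0.990, and Adam8 after it at 1.39 and 1.05. Dhdds, 2.37 kb from Lin28a, went from 7.01 to 6.20 (-0.17), and Atp9a, 5.96 kb from Sall4, from 22.9 to 21.3 (-0.10). Cd96, 2163 kb before Dppa4, and Gsta2, 19.9 kb from Dppa5a, were under 0.1 in both libraries.

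Dppa1, a further gene of the Dppa name, was at 0.0391 in the control library and listed at 0 in the other.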
